A study of Mus musculus with 12 samples.

Results

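The genes described here are 10 members of the heat shock response, taken by symbol from a table of raw read counts: Hspa1a, Hspa1b, Hsph1, Dnajb1, Hsp90aa1, Hspb1, Hspa8, Hspd1, Hspa4l and Hsf1. Each symbol matched 1 of the 55335 gene rows, and all 10 were among the 14935 genes that passed the filter on low counts. RNA was measured in 12 libraries of PYMT-R221A, a cell line from a mouse mammary tumour. The groups were cells given 40 µM KCC-07 (3 libraries), control cells (3), cells transfected with siRNA against Mbd2 (3, called siMBD2) and cells transfected with scramble siRNA (3). KCC-07 is a small molecule placed by the series title on the MBD2 pathway, and MBD2 is a protein that binds methylated DNA and recruits a chromatin-remodelling complex. The comparisons ask whether the compound, or loss of Mbd2 mRNA, moves the heat shock genes. No vehicle, treatment time or strain is named in the sources used here, and all groups are 1 cell line, so that the replicates, called biological by the labels, measure the spread between cultures and not between animals.

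Cells respond to misfolded protein by switching on chaperone genes through the transcription factor HSF1. In unstressed cells HSF1 is held by chaperones. When released it forms trimers and binds heat shock elements, which are runs of the unit GAA in alternating orientation. HSP70 proteins hold unfolded chains in a cycle driven by ATP, J-domain proteins (HSP40) start that cycle, HSP110 proteins release the nucleotide, HSP90 matures kinases and receptors, and small heat shock proteins keep aggregates soluble. Tumour cells often keep part of this programme on without heat. The set is not wholly cytosolic: Hspd1 encodes HSP60, the chaperonin of the mitochondrial matrix, and Hsf1 encodes the factor, not a chaperone.

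Promoter sequences show which members carry the element in its plain form. RefSeq windows (GRCm38.p6) of 250 bases before and 50 after an annotated start were at hand for 7 of the 10 members, 10 windows in all; Hsp90aa1, Hspa8 and Hsf1 were not among them. The searched motifs were the pairs GAANNTTC and TTCNNGAA, each its own reverse complement, and the run of 3 units GAANNTTCNNGAA on both strands, which contains both pairs. The windows shown are those of the paralogs Hspa1a and Hspa1b, because they are near-identical, of Hsph1, because it holds a 3-unit run, and of Hspa4l, because it is the member that changed with KCC-07. Capitals mark the matches, and each sequence runs 5′ to 3′ on the gene's strand. The Hspa1a window is chr17:34972107-34972406 (minus strand), that of Hspa1b is chr17:34959189-34959488 (minus), that of Hsph1 is chr5:149636287-149636586 (minus), and that of Hspa4l is chr3:40745363-40745662 (plus).
Hspa1a: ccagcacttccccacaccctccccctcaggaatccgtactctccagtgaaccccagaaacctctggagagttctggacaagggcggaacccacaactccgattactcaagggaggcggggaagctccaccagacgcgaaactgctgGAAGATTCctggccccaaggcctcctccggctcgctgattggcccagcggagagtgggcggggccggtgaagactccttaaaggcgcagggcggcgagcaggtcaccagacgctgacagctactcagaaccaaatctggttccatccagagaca
Hspa1b: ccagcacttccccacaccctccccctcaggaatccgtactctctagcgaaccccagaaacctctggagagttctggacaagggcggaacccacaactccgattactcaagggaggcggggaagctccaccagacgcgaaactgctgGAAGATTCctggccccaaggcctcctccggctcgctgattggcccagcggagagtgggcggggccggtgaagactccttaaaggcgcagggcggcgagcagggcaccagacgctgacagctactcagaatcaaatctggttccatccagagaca
Hsph1: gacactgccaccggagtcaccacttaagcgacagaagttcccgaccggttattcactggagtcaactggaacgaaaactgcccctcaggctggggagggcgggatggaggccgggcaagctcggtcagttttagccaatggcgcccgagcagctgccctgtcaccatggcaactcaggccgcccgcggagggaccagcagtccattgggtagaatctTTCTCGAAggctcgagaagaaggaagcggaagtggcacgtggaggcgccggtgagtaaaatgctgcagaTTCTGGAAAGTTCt
Hspa4l: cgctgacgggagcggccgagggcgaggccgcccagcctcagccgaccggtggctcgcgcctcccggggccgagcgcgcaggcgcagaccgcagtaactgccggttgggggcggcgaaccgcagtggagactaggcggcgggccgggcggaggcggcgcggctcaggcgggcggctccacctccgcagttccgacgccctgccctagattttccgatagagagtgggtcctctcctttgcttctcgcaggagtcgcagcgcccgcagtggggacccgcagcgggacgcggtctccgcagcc
The Hspa1a and Hspa1b windows were identical at 296 of 300 positions (98.7%), and both held GAAGATTC at position -104. Positions count the first transcribed base as 1, with no position 0. Hsph1 held TTCTCGAA at position -33 and the 3-unit run TTCTGGAAAGTTC at position 37, downstream of the start. Of the windows not printed, the one of Hspb1 held GAAGTTTC at -117 and GAACCTTC at -97, and the second of Hspd1 held overlapping 3-unit runs from -144. The Hspa4l window, both Dnajb1 windows and the first Hspd1 window held no such letters. The Hspa4l window lies downstream of position 40744495, where the annotation used for gene positions begins the gene. Sequence before that position was not searched. Among 32851 windows of the same length, 15.1% held either pair and 0.603% the 3-unit run. These are matches of letters only, and no binding was measured.

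Libraries held 25.8 to 34.0 M counts, so that a level of 1 CPM (counts per 1 M counts, scaled by TMM, a correction for composition) rested on about 25.8 to 34.0 counts. Epithelial markers matched the label: all 6 (Krt8, Krt18, Krt7, Epcam, Cdh1, Cldn7) exceeded 1 CPM in all 12 libraries. Of the 7 fibroblast and mural markers, 3 did so as well (Col1a1, Pdgfra and Pdgfrb), and none of the 6 leukocyte and 5 endothelial markers did. The leukocyte marker Cd68 reached 7.55 CPM and the endothelial marker Pecam1 6.58 CPM, both with KCC-07, while Ptprc stayed at or below 0.116 CPM and Cdh5 was at 0. The labels give every library a batch tag of 1, 2 or 3 that repeats its biological replicate number, called the batch here. The library names number replicate 3 as 4 in KCC-07 and control and as 3 in siMBD2 and scramble, so whether batch 3 is the same one in both arms is not given in the sources used here. Replicate 3 stood apart in each of the 4 groups. By the chi-square of counts over genes, divided by its degrees of freedom, KCC-07 replicate 3 differed from the other KCC-07 libraries by 119 and 120, and control replicate 3 from the other controls by 135 and 89.7, against 9.83 and 29.5 between replicates 1 and 2. Transcripts of the mitochondrial genome made up 3.90% of counts in KCC-07 replicate 3, against 1.55 to 1.82% in the other KCC-07 libraries, and 2.81% in control replicate 3, against 1.45 to 1.47% in the other controls. In the siRNA arm the chi-square was smaller, at 31.7 and 35 for siMBD2 replicate 3 and 24 and 22.6 for scramble replicate 3. Between replicates 1 and 2 it was 3.43 and 3.56 in the same order. The mitochondrial share was 2.70% in siMBD2 replicate 3, against 2.12 to 2.14% in the other siMBD2 libraries. In scramble replicate 3 it was 3.01%, against 2.21 to 2.32% in the others. Results that rest on replicate 3 of KCC-07 and control are given with and without it. The siRNA did lower its target: Mbd2 stood at 35.7, 34.7 and 30.6 CPM in siMBD2 cells, against 75.8, 83.2 and 72.5 CPM in scramble cells (log2 fold change -1.20, edgeR adjusted p = 0.000197).

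Per kilobase of annotated exon, the members spanned more than 2 orders of magnitude in these unheated cells. By the median over the 12 libraries, Hspd1 (329 CPM per kb), Hspa8 (309) and Hsp90aa1 (272) led, followed by Hspb1 (91.8), Hsph1 (31.9), Dnajb1 (24.7) and Hsf1 (10.2). The lowest were Hspa1b (5.43), Hspa4l (4.45) and Hspa1a (1.71). Hspd1 and Hspa8 overlapped over the libraries, as did Hspa8 and Hsp90aa1, Hsph1 and Dnajb1, and Hspa1b and Hspa4l. Every value of Hsp90aa1 exceeded every value of Hspb1, and the same held for Hspb1 over Hsph1, Dnajb1 over Hsf1, Hsf1 over Hspa1b and Hspa4l over Hspa1a. The genes classically used to read heat stress, Hspa1a and Hspa1b, were thus at the bottom of the set, together with Hspa4l. The top held Hspd1 and the constitutive Hspa8, but also Hsp90aa1, which is the inducible HSP90 isoform. The order therefore did not separate inducible from constitutive members. Exon length was the union over all isoforms, which is 11792 bases for Hspa4l and lowers its value. Hspa8 was counted here without its pseudogene Gm15459, which held 54.1% of their summed counts at the median. The place of Hspa8 among the top genes, and its overlaps with them, thus depend on how shared reads were split.

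**Figure D1:**
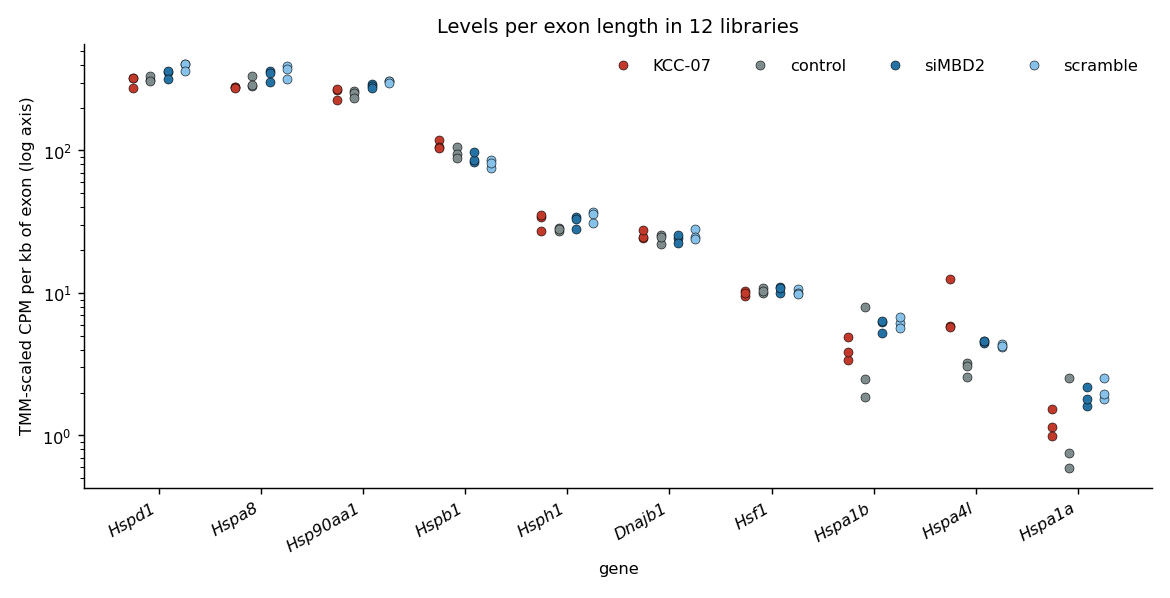
TMM-scaled CPM per kilobase of annotated exon (log axis) for the 10 genes in order of their median, with 1 point per library and groups coloured. Hspd1, Hspa8 and Hsp90aa1 lie between 226.81 and 403.49 and Hspa1a between 0.592 and 2.55; the control points of Hspa1a and Hspa1b are the most spread.

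With KCC-07 only Hspa4l changed among the 10 members, and it rose. Hspa4l (chromosome 3, 40744495 to 40796103, plus strand, 21 exon blocks) encodes an HSP110-family protein related to HSPA4 that acts as an exchange factor for HSP70. It had 69.0, 67.9 and 147 CPM with KCC-07, against 30.3, 38.2 and 36.0 CPM in control. The groups did not overlap, and replicate 3 was the highest KCC-07 library. The means were 94.5 ± 45.2 CPM with KCC-07 and 34.8 ± 4.08 CPM in control (SD, n = 3 each), a 2.71-fold rise (log2 fold change 1.44, SE 0.244, 95% interval 0.91 to 1.97, edgeR quasi-likelihood test, Benjamini-Hochberg adjusted p = 0.009). Same-numbered libraries differed by 1.19, 0.83 and 2.03 on the log2 scale, all upward. Without KCC-07 replicate 3 the log2 fold change was 0.98 (edgeR adjusted p = 0.00069), and without batch 3 it was 1.01 (edgeR adjusted p = 0.00045). The gene passed in 16 of 17 other settings. The 16 include the settings that only summed counts of other genes (edgeR adjusted p = 0.00899 and 0.00897). These left the Hspa4l counts unchanged and could not test the result. Fitted on its 6 libraries alone, Hspa4l did not pass (edgeR adjusted p = 0.138), where 0.00688% of all genes passed. It has no near-identical copy in the annotation and shares no exon with another gene. The summed leukocyte markers stood at 1.42 to 8.28 CPM with KCC-07 and 0.809 to 0.972 CPM in control, with Adgre1 at 0 throughout. The summed endothelial markers stood at 1.24 to 6.72 CPM with KCC-07 and 2.82 to 4.41 CPM in control, with Cdh5 at 0. The summed fibroblast and mural markers stood at 106 to 163 CPM with KCC-07 and 190.1 to 221.4 CPM in control. Of these, Pdgfra had 72.5 to 133 CPM with KCC-07 and 148 to 161 CPM in control. Pdgfrb had 2.52 to 10.6 and 16.1 to 17.5 CPM in the same order. Col1a1 had 18.5 to 30.4 and 24.5 to 52.3 CPM, and Thy1 was at 0. The part of these cell types in the Hspa4l result was not tested. These are bulk samples, in which fewer cells of a type and less RNA per cell cannot be told apart.

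That 1 call of 10 stands against a background of 5.65%: 844 of 14935 genes passed in the same comparison, 534 higher (3.58%) and 310 lower (2.08%). The median log2 fold change was -0.001 over the members and 0.015 over all genes tested, and 5 of the 10 members lay above 0. In 2 members, Hspa4l and Hspa8 (counted without its pseudogenes), every library of one group lay beyond every library of the other, against 22.9% of all genes.

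The stress-inducible HSP70 genes did not pass, and control replicate 3 stood apart in them. Hspa1a (chromosome 17, 34969190 to 34972156, minus strand, 1 exon) had 3.41, 2.95 and 4.57 CPM with KCC-07, against 1.76, 2.23 and 7.57 CPM in control. Hspa1b (chromosome 17, 34956436 to 34959238, minus strand, 1 exon) had 9.55, 10.7 and 13.8 CPM with KCC-07, against 5.21, 6.99 and 22.4 CPM in control. In both genes the KCC-07 libraries lay between control replicates 1 and 2 on one side and control replicate 3 on the other. Control replicate 3 held the highest Hspa1b level of all 12 libraries. The fitted log2 fold changes were -0.08 for Hspa1a (SE 0.446, 95% interval -1.06 to 0.89, edgeR adjusted p = 0.93) and -0.02 for Hspa1b (SE 0.413, -0.92 to 0.88, edgeR adjusted p = 0.984).

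Within batches the sign of these genes depended on the batch. Hspa1a was higher with KCC-07 by 0.93 and 0.39 on the log2 scale in batches 1 and 2 and lower in batch 3 (-0.72), and Hspa1b by 0.87 and 0.61 and -0.69 in the same order. Without batch 3 the log2 fold changes were 0.68 for Hspa1a (edgeR adjusted p = 0.065) and 0.74 for Hspa1b (edgeR adjusted p = 0.0121), and without control replicate 3 alone they were 0.87 (edgeR adjusted p = 0.0503) and 0.90 (edgeR adjusted p = 0.0175). Of all genes, 25.6% passed without batch 3 and 13.9% without control replicate 3. The part that the mitochondrial share, which moves with the same libraries, has in this was not tested. The transcripts are 99.2% identical over 74.0% of Hspa1a and 78.5% of Hspa1b, and the treatment of reads that fit both is not given in the sources used here, so the split between the paralogs is uncertain. Summed to 1 gene, they had 12.97, 13.7 and 18.4 CPM with KCC-07 and 6.97, 9.23 and 29.9 CPM in control. The single exon of Hspa1a also overlaps Gm20481 on the opposite strand, and no strand setting is given.

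**Figure D2:**
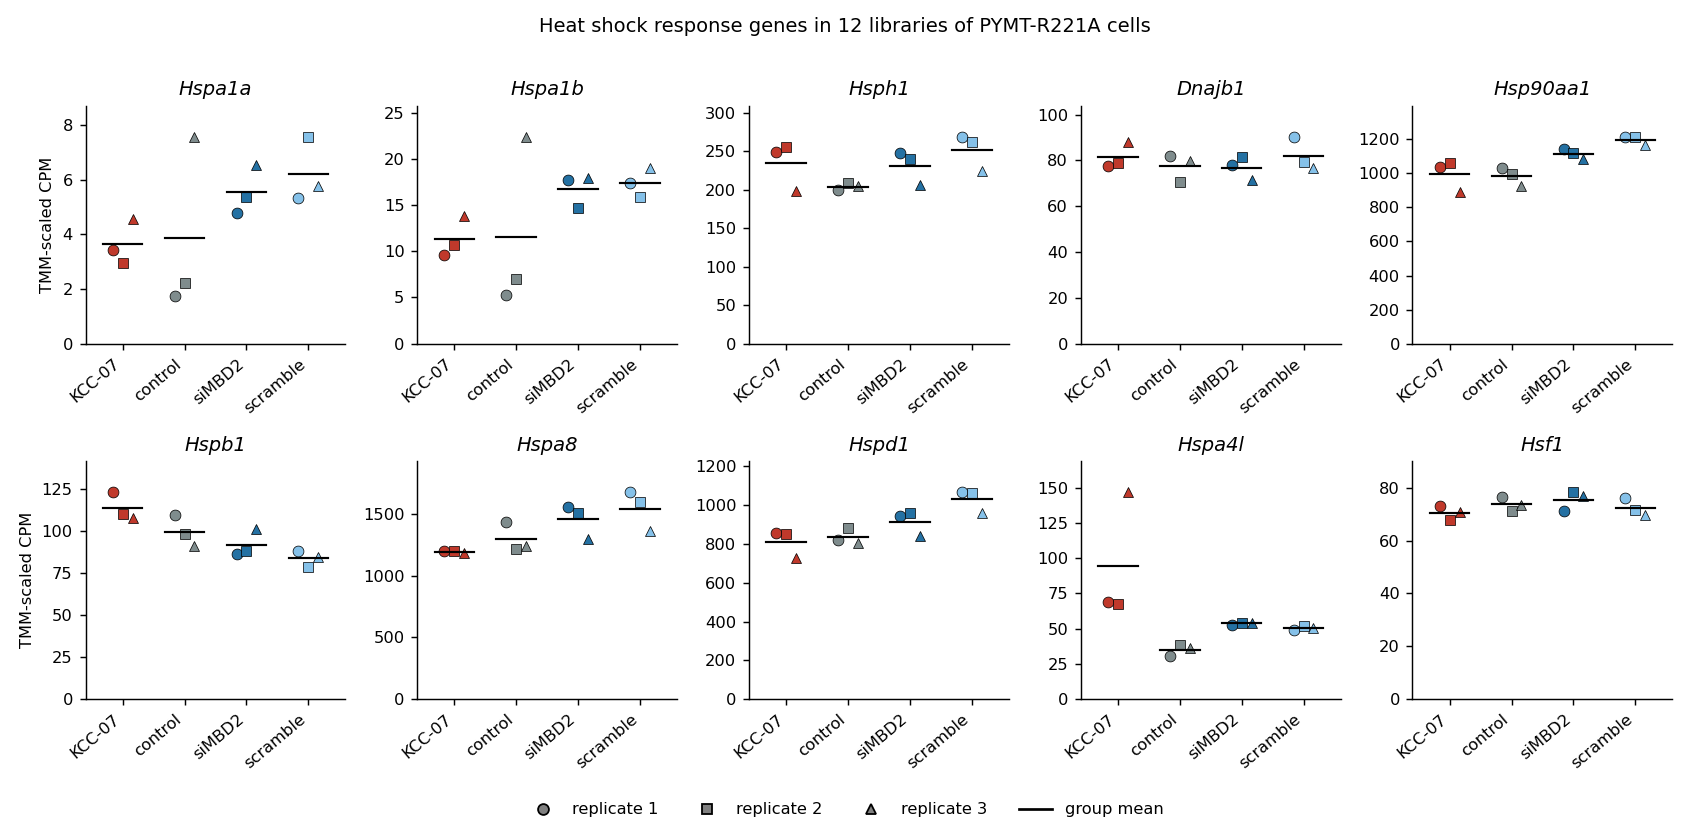
TMM-scaled CPM (linear axes from 0) of each of the 10 genes in 12 libraries, by group, with the replicate as the symbol and the group mean as a bar. Hspa4l in KCC-07 cells lies above control in every library, while control replicate 3 (triangle) stands at 7.57 CPM for Hspa1a and 22.4 CPM for Hspa1b, above the KCC-07 libraries.

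Hsph1 and Dnajb1, which work with HSP70, did not pass either. Hsph1 (chromosome 5, 149614287 to 149636376, minus strand), which encodes HSP110 itself, had 249, 256 and 199 CPM with KCC-07, against 199, 209 and 204 CPM in control. Replicates 1 and 2 with KCC-07 lay above all controls, and replicate 3 was level with the lowest control. The log2 fold change was 0.20 (SE 0.113, 95% interval -0.05 to 0.45, edgeR adjusted p = 0.292), and 0.31 without batch 3 (edgeR adjusted p = 0.00568). Dnajb1 (chromosome 8, 83608193 to 83612653, plus strand), the J-domain partner of inducible HSP70, had 77.4, 79.0 and 88.1 CPM with KCC-07, against 82.1, 70.7 and 79.7 CPM in control. Its groups overlapped (log2 fold change 0.07, 95% interval -0.14 to 0.28, edgeR adjusted p = 0.687).

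The most abundant members had log2 fold changes between -0.12 and 0.02. Hspa8 (chromosome 9, 40800984 to 40810087, plus strand), the constitutive HSP70 known as HSC70, had 1203, 1202 and 1183 CPM with KCC-07, against 1434, 1216 and 1244 CPM in control. With Hspa8 counted without its pseudogenes, all KCC-07 libraries lay below all controls. Yet the difference was within the pooled spread (log2 fold change -0.12, 95% interval -0.35 to 0.11, edgeR adjusted p = 0.522). Hsp90aa1 (chromosome 12, 110690605 to 110702728, minus strand), the inducible HSP90 isoform, had 1037, 1058 and 892 CPM with KCC-07 and 1029, 994 and 924 CPM in control (log2 fold change 0.02, 95% interval -0.17 to 0.21, edgeR adjusted p = 0.916). Hspd1 (chromosome 1, 55077835 to 55088243, minus strand) had 855, 853 and 729 CPM with KCC-07 and 821, 884 and 807 CPM in control (log2 fold change -0.04, 95% interval -0.25 to 0.16, edgeR adjusted p = 0.82). For both of these genes replicate 3 was the lowest library of its group, in KCC-07 and in control alike.

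Hspb1 and Hsf1 complete the set. Hspb1 (chromosome 5, 135887919 to 135889563, plus strand), the small heat shock protein HSP25 of the mouse, had 122.7, 109.7 and 108 CPM with KCC-07, against 109, 98.1 and 91.2 CPM in control. It was higher in each of the 3 batches, by 0.17, 0.16 and 0.24 on the log2 scale, but the ranges overlapped and the test did not pass (log2 fold change 0.19, SE 0.0982, edgeR adjusted p = 0.254). Hsf1 (chromosome 15, 76477422 to 76501913, plus strand) had 73.1, 67.8 and 71.0 CPM with KCC-07, against 76.5, 71.1 and 73.5 CPM in control (log2 fold change -0.06, 95% interval -0.23 to 0.11, edgeR adjusted p = 0.657). Its interval was the narrowest of the 10, and heat shock activation of HSF1 runs through the protein, which was not measured.

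**Figure D3:**
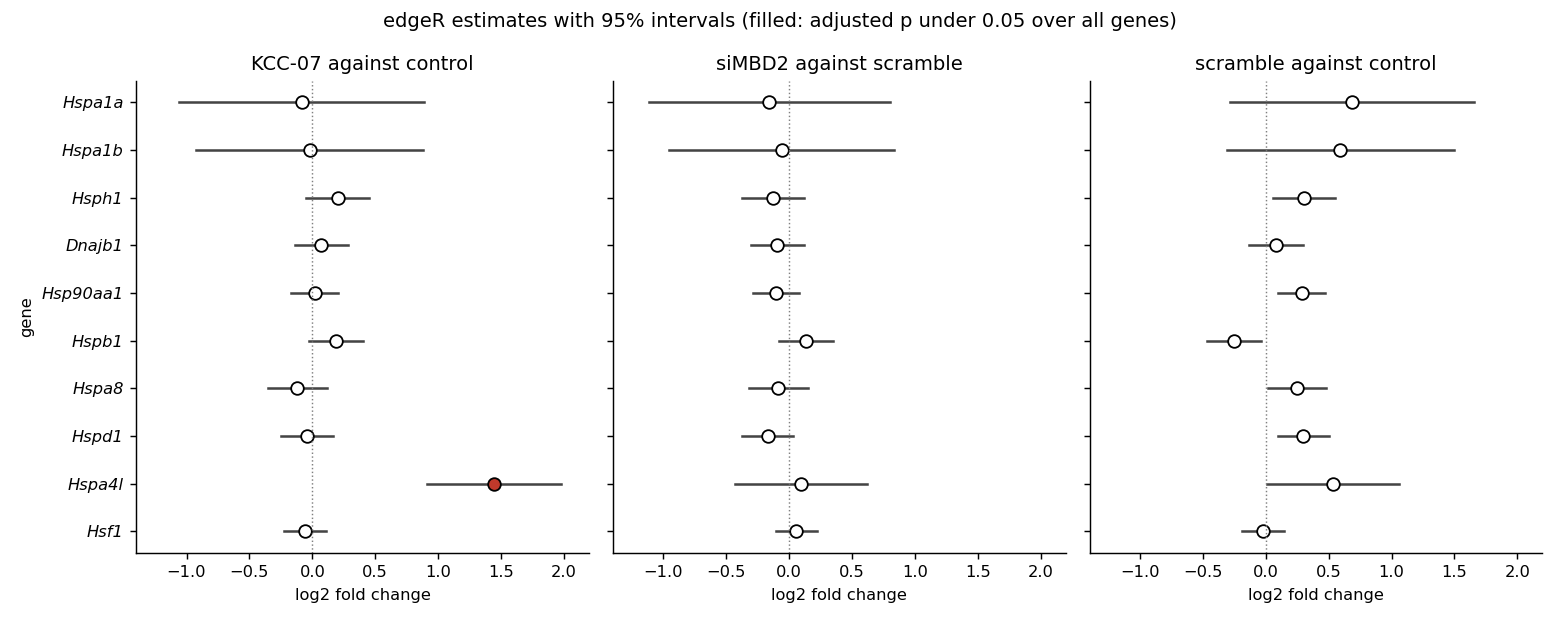
log2 fold changes (points) with 95% intervals (lines) from edgeR for the 10 genes in 3 comparisons, filled where the adjusted p over all genes was under 0.05. Hspa4l with KCC-07 (1.44) is the one filled point, and Hspa1a and Hspa1b have the widest intervals.

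With Mbd2 knocked down, no member passed in siMBD2 against scramble (0 of 10 by edgeR, 0 at an unadjusted p under 0.05, and 0 by DESeq2). The background was low as well, with 6 genes or 0.0402% of those tested by edgeR, 5.26% at an unadjusted p under 0.05 and 0.604% by DESeq2. Log2 fold changes ran from -0.17 (Hspd1) to 0.13 (Hspb1), with a median of -0.089 against 0.004 over all genes. Hspa4l had 52.9, 54.1 and 54.4 CPM in siMBD2 cells, against 49.0, 52.1 and 50.3 CPM in scramble cells. Its groups did not overlap, but the difference was small (log2 fold change 0.09, 95% interval -0.43 to 0.62, edgeR adjusted p = 1). Hsp90aa1 was the other member without overlap, with 1145, 1118 and 1082 CPM in siMBD2 cells and 1212, 1213 and 1166 CPM in scramble cells (log2 fold change -0.10, 95% interval -0.29 to 0.08, edgeR adjusted p = 1). Over all genes, 22% had groups that did not overlap.

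The inducible pair overlapped between the siRNA groups. Hspa1a had 4.78, 5.38 and 6.53 CPM in siMBD2 cells, against 5.34, 7.57 and 5.76 CPM in scramble cells (log2 fold change -0.16, edgeR adjusted p = 1). Hspa1b had 17.7, 14.6 and 17.9 CPM in siMBD2 cells, against 17.3, 15.8 and 19.0 CPM in scramble cells (log2 fold change -0.06, edgeR adjusted p = 1). Hspd1, with 946, 961 and 840.3 CPM in siMBD2 cells and 1066, 1064 and 959.8 CPM in scramble cells, was lower in each batch by 0.17, 0.15 and 0.19 on the log2 scale, and its groups overlapped. Hsph1, Dnajb1, Hspb1, Hspa8 and Hsf1 overlapped as well, with log2 fold changes of -0.12, -0.09, 0.13, -0.08 and 0.06. Fitted on the 6 siRNA libraries alone with the batch as a block, 4 members fell (Hsph1 -0.12, Hsp90aa1 -0.10, Hspa8 -0.08 and Hspd1 -0.17), at a background of 19.8% of genes.

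The difference between the KCC-07 and siMBD2 effects was tested as 1 contrast, and 0 of 10 members passed by edgeR (1 at an unadjusted p under 0.05, and 1 by DESeq2), against 0.656% of all genes by edgeR, 14.6% unadjusted and 3.81% by DESeq2. That member was Hspa4l, whose change with KCC-07 exceeded that with siMBD2 by 1.35 on the log2 scale (SE 0.341, 95% interval 0.60 to 2.09, edgeR adjusted p = 0.0995). With the batch as a block the difference was 1.26 and passed (edgeR adjusted p = 0.0315, beside 6.9% of all genes), without KCC-07 replicate 3 it was 0.88 and passed (edgeR adjusted p = 0.0139), and DESeq2 called it (adjusted p = 0.00674). Without batch 3, Hsph1 (0.43, edgeR adjusted p = 0.0137) and Hspa4l (0.92, edgeR adjusted p = 0.00691) both passed, with 10.6% of all genes.

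Scramble cells were set against control to see what the transfection arm goes with. Scramble cells were above control for 8 of 10 members, with a median log2 fold change of 0.29 against -0.029 over all genes, yet 0 of 10 passed by edgeR, where 8.79% of all genes did. At an unadjusted p under 0.05 there were 6, against 27.2% of all genes, and DESeq2 called 2, Hsp90aa1 and Hspd1, against 15.3% of all genes. Transfection, scramble siRNA and the arm in which a library was made cannot be told apart here. Hspd1 had 1066, 1064 and 959.8 CPM in scramble cells, against 821, 884 and 807 CPM in control (log2 fold change 0.30, SE 0.0939, edgeR adjusted p = 0.0694). Hsp90aa1 had 1212, 1213 and 1166 CPM in scramble cells, against 1029, 994 and 924 CPM in control (log2 fold change 0.29, SE 0.0855, edgeR adjusted p = 0.0597). In both genes every scramble library was above every control library. Hsph1 with 268, 262 and 224 CPM in scramble cells and 199, 209 and 204 CPM in control (log2 fold change 0.30, edgeR adjusted p = 0.111) was likewise separate.

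Hspa4l and Hspb1 lay on opposite sides of control in scramble cells. Hspa4l had 49.0, 52.1 and 50.3 CPM in scramble cells, against 30.3, 38.2 and 36.0 CPM in control (log2 fold change 0.54, edgeR adjusted p = 0.178). Hspb1 had 87.7, 78.2 and 84.7 CPM in scramble cells, against 109, 98.1 and 91.2 CPM in control (log2 fold change -0.25, edgeR adjusted p = 0.124). Neither passed, though in both the groups were separate; 5 of 10 members were, against 33.2% of all genes. Hspa8 was higher by 0.25 (edgeR adjusted p = 0.154), with 1675, 1597 and 1360.1 CPM in scramble cells and 1434, 1216 and 1244 CPM in control, and these overlapped. Dnajb1 (0.08) and Hsf1 (-0.02) lay near 0.

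The scramble comparison of the inducible pair also turned on control replicate 3. Hspa1a was higher in scramble cells by 0.69 (edgeR adjusted p = 0.34) and Hspa1b by 0.59 (edgeR adjusted p = 0.377) on the log2 scale in all libraries. Without control replicate 3 these were 1.64 (edgeR adjusted p = 0.00397) and 1.52 (edgeR adjusted p = 0.00178), and 3 members passed at a background of 20.4%. Without batch 3 altogether, 8 members passed, 7 higher and Hspb1 lower, where 41.1% of all genes passed. With the replicate number as a block over all groups, Hsph1 (edgeR adjusted p = 0.0461), Hsp90aa1 (0.0303) and Hspd1 (0.0249) passed, with 13.8% of all genes; whether both arms shared batches is not given.

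**Figure D4:**
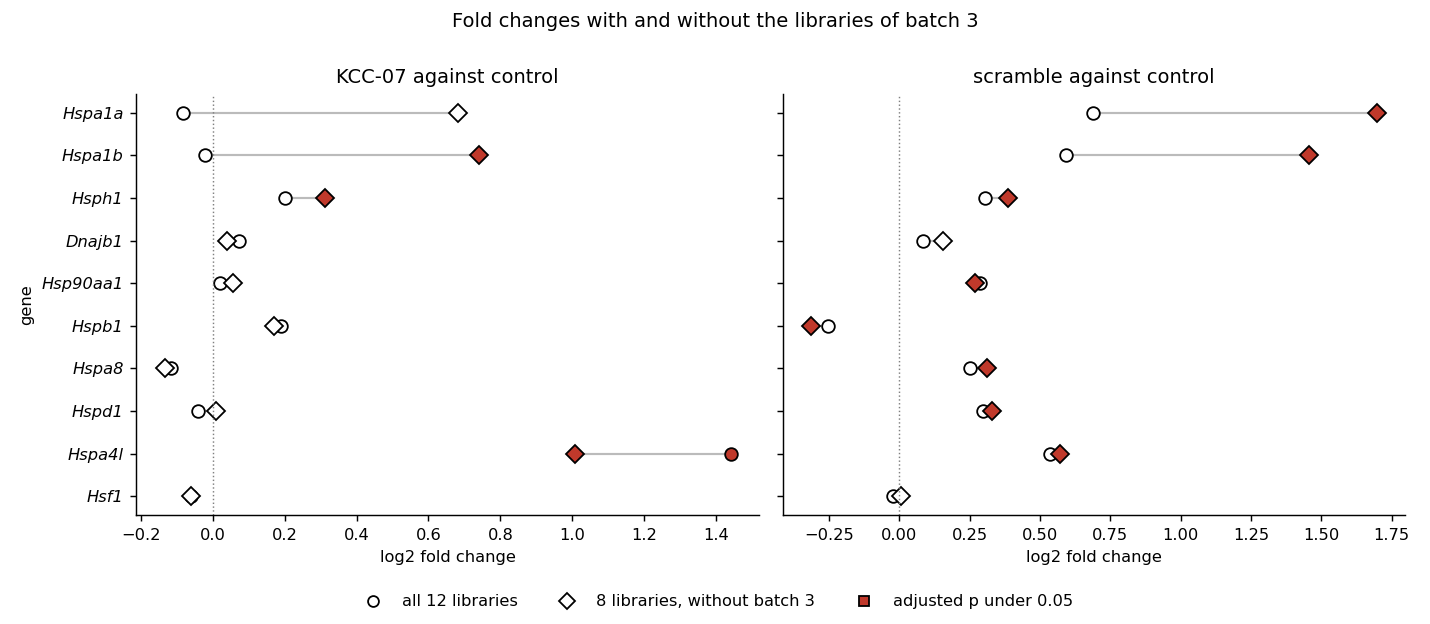
log2 fold changes of the 10 genes from all 12 libraries (circles) and from the 8 libraries without batch 3 (diamonds), filled where the edgeR adjusted p was under 0.05. In KCC-07 against control Hspa1a and Hspa1b move from -0.08 and -0.02 to 0.68 and 0.74, and Hspa4l from 1.44 to 1.01; in scramble against control the filled genes go from 0 to 8.

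Several members have processed copies that share their reads. A pseudogene of Hspa8, Gm15459 (chromosome 5, 5781615 to 5783555), matches 62.2% of the Hspa8 transcript at 100% identity. Unscaled, it held 1428, 1496 and 1455 CPM with KCC-07, against 1719.6, 1403 and 1522 CPM in control, more than Hspa8 in each of the 12 libraries and 54.1% of their sum at the median. Hsp90aa1 and Hspb1 have 2 near-identical copies each and Hspd1 has 1, with at most 9.59% of the summed counts at the median. Levels of Hspa8 are therefore uncertain. With its copies added, Hspa8 had 2640, 2691 and 2606 CPM (TMM-scaled) with KCC-07 and 3150, 2640 and 2770 CPM in control. These groups, separate for Hspa8 alone, then overlapped. Adding the copies left the log2 fold changes of Hspa8 at -0.11 with KCC-07, -0.09 with siMBD2 and 0.26 for scramble against control, and changed no call. Hspd1 shares exon sequence with Hspe1 on the opposite strand.

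The wider chaperone network was followed in 66 further genes in 9 lists, of which 61 were tested. With KCC-07, 2 rose and 1 fell, against the 5.65% of all genes, and 18 had an unadjusted p under 0.05, against 25.1% of all genes. Of the 61, 21 lay above 0, with a median log2 fold change of -0.07. All 3 calls were lost on the 6 libraries of the comparison alone, where 0.00688% of all genes passed. There the edgeR adjusted p was 0.138 for Zfand2a, 0.176 for Dnajb2 and 0.261 for Cacybp. They were lost too with the batch as a block on those 6 libraries, where 2.84% of all genes passed. The edgeR adjusted p was then 0.06, 0.0529 and 0.11 in the same order. All 3 passed in the 12-library fit with the block, where 21.8% of all genes passed. Zfand2a, an arsenite- and heat-inducible gene whose product binds the proteasome, rose most. It had 54.5, 56.6 and 82.1 CPM with KCC-07, against 36.5, 39.1 and 30.1 CPM in control (log2 fold change 0.87, SE 0.151, edgeR adjusted p = 0.00991). As with Hspa4l, replicate 3 was the highest KCC-07 library, and without batch 3 the change was 0.56 (edgeR adjusted p = 0.00148). Zfand2a passed in each of the 6 fits that left out a single library. Dnajb2, a J-domain gene, had 36.0, 38.6 and 42.1 CPM with KCC-07, against 21.4, 29.7 and 25.6 CPM in control (log2 fold change 0.61, SE 0.13, edgeR adjusted p = 0.0217); without control replicate 1 it did not pass (edgeR adjusted p = 0.0658).

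Cacybp fell, a gene listed with the HSP90 co-chaperones and known as a binding partner of the Siah ligases. It had 151, 156 and 145 CPM with KCC-07, against 226, 193 and 173 CPM in control (log2 fold change -0.39 with SE 0.0929 and an edgeR adjusted p of 0.0327). Leaving out single libraries moved its adjusted p between 0.00877 and 0.0703, and it passed in 1 of those 6 fits, the one without control replicate 3. It just missed with no filter on low counts (0.0507). The 8 subunit genes of TRiC, the chaperonin that folds actin and tubulin, all lay below 0 with KCC-07 (median -0.28), but none passed by edgeR, 5 had an unadjusted p under 0.05, and the ranges of the groups overlapped in each. Without batch 3, 6 of the 8 fell (Tcp1, Cct3, Cct4, Cct5, Cct6a and Cct8, edgeR adjusted p from 0.00828 for Cct4 to 0.0321 for Cct6a), where 25.6% of all genes passed. With the batch as a block, 7 of the 61 genes rose and 10 fell with KCC-07, where 21.8% of all genes passed.

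The 8 relatives and partners picked out for every comparison did not pass with KCC-07 in all libraries. The log2 fold changes were -0.02 for Hsf2, the second heat shock factor, -0.15 for Hspa4, the paralog of Hspa4l, and -0.16 for Hsp90ab1, the constitutive HSP90. They were -0.02 for Stip1, which bridges HSP70 and HSP90, -0.07 for Dnaja1, an HSP40, -0.03 for Bag3, a stress-inducible HSP70 co-chaperone, and -0.17 for Hspe1, the partner of HSP60. Without batch 3, Hspe1 stood at -0.25 and passed (edgeR adjusted p = 0.0236), as it did without control replicate 3 alone (0.0306). Hspa4 had 661, 665 and 509 CPM with KCC-07, against 667, 677 and 691 CPM in control (edgeR adjusted p = 0.371). Hspb8, the small heat shock protein that works with BAG3, was near the detection limit, with 16, 13 and 17 reads with KCC-07 against 7, 6 and 8 in control (log2 fold change 1.32, edgeR adjusted p = 0.103), and passed with the batch as a block (edgeR adjusted p = 0.0374).

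Among the same genes Hsp90ab1 had the lowest log2 fold change with siMBD2. It had 3018, 2892 and 2787 CPM in siMBD2 cells, against 4012, 3963 and 3786 CPM in scramble cells. The groups did not overlap, at 2899 ± 115 CPM in siMBD2 and 3920.3 ± 119 CPM in scramble (SD, n = 3 each). The log2 fold change of -0.44 (SE 0.0825, 95% interval -0.62 to -0.26) had an edgeR adjusted p of 0.134 in all libraries. It passed with the batch as a block (edgeR adjusted p = 0.0231, beside 0.75% of all genes), without batch 3 (0.0114, beside 1.08%) and by DESeq2 (9.8e-05). No listed gene passed in siMBD2 against scramble by edgeR (0 of 61, against 0.0402% of all genes). At an unadjusted p under 0.05 there were 4, against 5.26% of all genes, and DESeq2 called 1, against 0.604%. In the difference of the effects 0 of 61 passed, against 0.656% of all genes, the nearest being Zfand2a at 1.04 (edgeR adjusted p = 0.0559). Unadjusted, 5 had p under 0.05, against 14.6% of all genes, and DESeq2 called 1, against 3.81%. For scramble against control 1 of 61 passed, against 8.79% of all genes. This was Bag2, which rose (0.33, edgeR adjusted p = 0.0475) and encodes a co-chaperone that limits the ligase CHIP. Bag2 had 49.9, 49.3 and 45.9 CPM in scramble cells, against 40.7, 35.9 and 38.7 CPM in control, and passed in 1 of 6 fits that left out a single library (edgeR adjusted p from 0.0402 to 0.163).

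**Figure D5:**
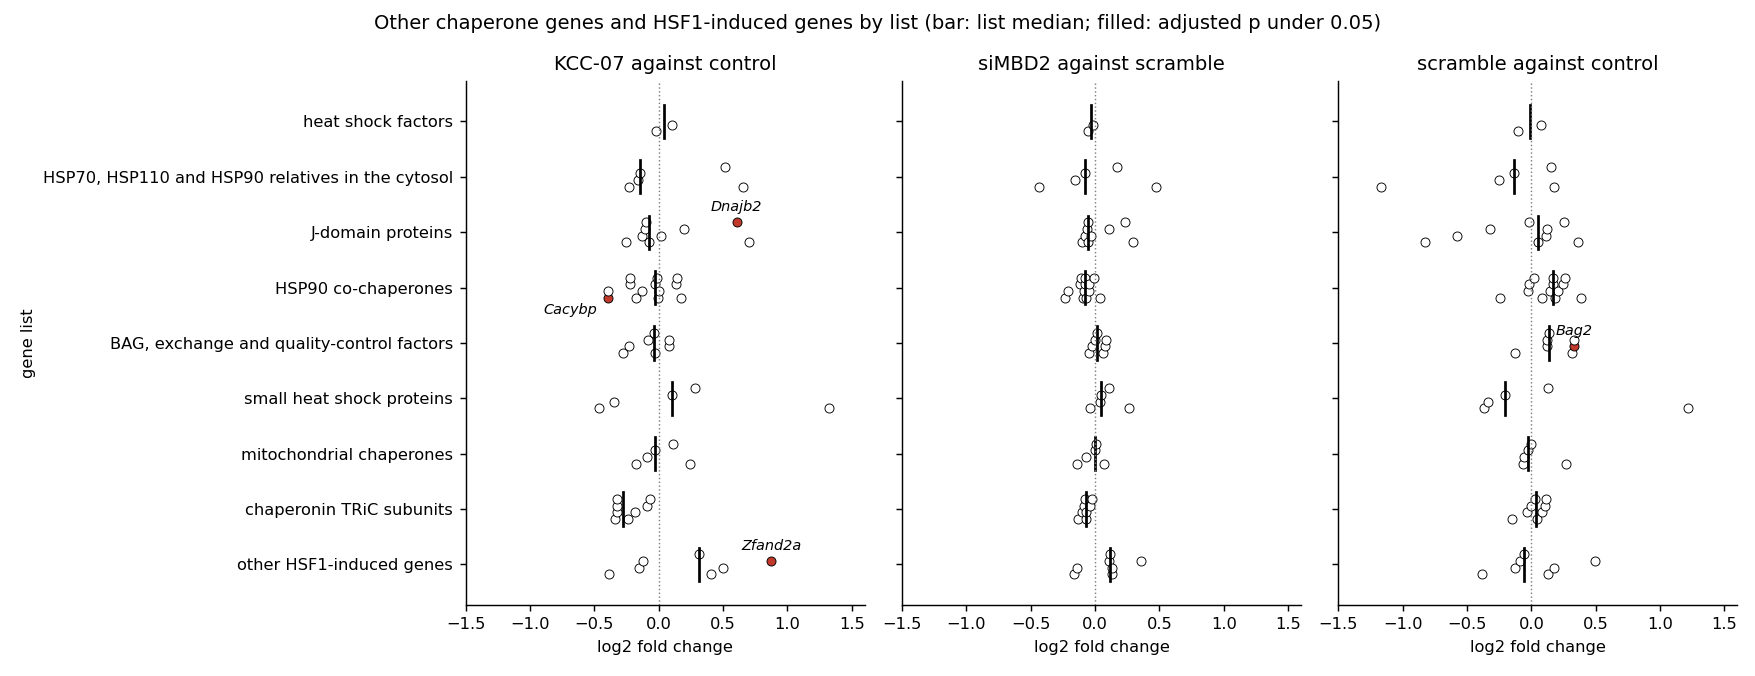
log2 fold changes of the 61 further genes tested, by list (rows) and comparison (panels), with the list median as a bar and genes with an edgeR adjusted p under 0.05 filled and named. Zfand2a (0.87), Dnajb2 (0.61) and Cacybp (-0.39) with KCC-07 and Bag2 (0.33) in scramble cells are the filled points, and the 8 TRiC subunits lie below 0 with KCC-07.

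The genes outside the set whose levels ran most like the mean of Hspa1a, Hspa1b, Hsph1 and Dnajb1 were Spen, Diaph1, Celf1, Setd1a and Ylpm1. Likeness was Pearson's r over the 12 libraries with the mean log2 CPM of those 4 members, among genes of at least 2 CPM on average, and it ran from 0.967 (Ylpm1) to 0.978 (Spen). The points share groups and batches, so that r describes these libraries only. The 4 members did not run together: r was 0.947 between Hspa1a and Hspa1b, but 0.101 to 0.229 between the other pairs. Likeness to their mean is therefore not likeness to Hsph1 or Dnajb1. Spen averaged 71.0 CPM with KCC-07 and 60.2 CPM in control, and 88.4 CPM in siMBD2 and 88.8 CPM in scramble cells. By group mean its 2 siRNA groups were thus above its 2 drug-arm groups, as they were for Hspa1a and Hspa1b. In those members the siRNA groups overlapped control, as control replicate 3 was level with or above the highest siRNA library.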

How the data were processed

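Per the labels' protocols, polyA RNA was isolated on columns and read on a NovaSeq X instrument. The deposited table holds raw read counts per gene, not normalized. DRAGEN, the build mm10 (GRCm38.p6) and DESeq2 1.44.0 appear in the submitters' processing notes; the counter, annotation, strand setting and treatment of multi-mapped reads are not given in the sources used here. Columns were matched to libraries by the library names in the labels.

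Genes were kept by filterByExpr over the 4 groups (counts of at least 10, totals of at least 15), scaled by TMM and fitted in edgeR 4.0.16 (R 4.3.3) by the quasi-likelihood test with 1 mean per group over all 12 libraries (8 residual degrees of freedom). P-values were Benjamini-Hochberg adjusted over the 14935 genes of a comparison, with a threshold of 0.05. The script was tested on simulated data. No permutation test was run on single genes, since exact permutation of 3 against 3 libraries reaches p = 0.1 at best. SE is the log2 fold change over the square root of the F statistic.

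The labels' batch tag, which repeats the biological replicate number, pairs same-numbered libraries within an arm. Their deviations from group means correlated across genes with r = 0.27, 0.28 and 0.48 between KCC-07 and control and 0.09, 0.15 and 0.42 between siMBD2 and scramble. Replicates 1 and 2 were not told apart by this (differently numbered pairs of them gave 0.17 and 0.30, and 0.18 and 0.21); replicate 3 was. Between scramble and control r was 0.07, 0.02 and 0.13, so the block across arms rests on the tag alone. Blocked fits over all 12 libraries had 4 residual degrees of freedom, and 6 for scramble against control. The blocked fits on 6 libraries had fewer. All replicates of a group differed by more than sampling noise (chi-square of counts over its degrees of freedom at least 3.43). Alternatives were other size factors, filters, the block, 6-library fits, the Wald test of DESeq2 1.42.0, leaving out libraries, and summed copies. The following 2 settings were chosen after seeing the data: leaving out replicate 3 of KCC-07 and control alone, and summing all near-identical copies.

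The members, the 9 further gene lists and the tests were chosen with earlier results of these data known. Named were the members, 8 fixed relatives, listed genes past the threshold (up to 3 per list and comparison), the 5 genes most alike and Mbd2. Positions come from GENCODE on GRCm38, where 54587 of 55335 identifiers were found. Copies had at least 95% identity across at least 50% of a transcript.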

Additional observations from a re-analysis of the deposited data

How the results depend on the processing

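Shares of all genes that passed are given in brackets. The count of members that passed in KCC-07 against control was 0 when its 6 libraries were fitted alone (0.00688%) and 3 without batch 3 (25.6%). It was 1 to 2 when single libraries (2.51 to 13.9%) or replicate 3 of both groups (17.4%) were left out. In siMBD2 against scramble it was 4 in the 6-library fit with the replicate block (19.8%). In the difference of the effects it was 1 without a filter (0.656%), 1 with the replicate block (6.9%) and 1 by DESeq2 (3.81%). It was 2 there without batch 3 (10.6%), and 0 to 2 with libraries left out (0.0719 to 8.76%). For scramble against control the replicate block over all groups gave 3 (13.8%), and it was 1 in the 6-library fit (6.21%). There it was 2 by DESeq2 (15.3%), 8 without batch 3 (41.1%), and 0 to 3 with single libraries left out (1.91 to 20.4%). The 6-library fits could not be made for the difference. The block changed no other count of members.

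Log2 fold changes near 0 changed sign as follows. In KCC-07 against control, Hspa1a was 0.16 and Hspa1b 0.23 with the block, and 0.18 and 0.25 in the 6-library fit with the block. Without batch 3, and likewise without replicate 3 of KCC-07 and control, Hspa1a was 0.68, Hspa1b 0.74, Hspd1 0.01, Hsf2 0.03, Stip1 0.01, Bag3 0.12 and Dnaja1 0.01, and in scramble against control Hsf1 was 0.01 without batch 3. With single libraries left out, the KCC-07 values ran from -0.44 to 0.87 (Hspa1a), -0.38 to 0.90 (Hspa1b), -0.02 to 0.09 (Hsp90aa1), -0.08 to 0.03 (Hspd1), -0.18 to 0.07 (Hsf2), -0.09 to 0.08 (Stip1) and -0.15 to 0.10 (Bag3). For siMBD2 they ran from -0.29 to 0.01 (Hspa1a), -0.12 to 0.03 (Hspa1b) and -0.27 to 0.50 (Hspb8), and for scramble against control from -0.06 to 0.01 (Hsf1), -0.07 to 0.18 (Hsf2) and -0.16 to 0.09 (Hspe1). For the difference they ran from -0.28 to 1.03 (Hspa1a), -0.32 to 0.96 (Hspa1b), -0.00 to 0.13 (Hspb1) and -0.11 to 0.05 (Hspa8). The cause was not tested. Of all recomputed values, 1116 kept direction and side of the threshold (counts within 1.5 times), 61 changed sign, 48 counts moved further, 47 values of a gene gained a call and 22 lost one. Hspa1a rests on 60 to 261 counts per library and Hspb8 on 6 to 24, which limits both.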
